A study of Mus musculus with 4 samples.

Results

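The urea cycle enzymes are 6 genes, chosen by symbol: Nags, Cps1, Otc, Ass1, Asl and Arg1. They were read among 33783 gene symbols in RNA sequencing of mice labelled Adar1-/- or Adar1-/- Mavs-/-. All 6 were in the values of both embryonic liver libraries, and 2 of them, Arg1 and Nags, were also in the embryo values, which cover only part of the genome. Isoforms whose identifier matched one of these symbols were taken, together with isoforms without a symbol in the same Cufflinks gene.

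The cycle turns ammonia into urea. In mitochondria, NAGS makes N-acetylglutamate, the activator that CPS1 needs, CPS1 makes carbamoyl phosphate from ammonia and bicarbonate, and OTC joins carbamoyl phosphate to ornithine to give citrulline. In the cytosol, ASS1 joins citrulline to aspartate, ASL splits the resulting argininosuccinate into arginine and fumarate, and ARG1 releases urea and returns ornithine. The whole cycle runs in hepatocytes, where its enzymes appear during fetal life, whereas ASS1 and ASL also serve arginine synthesis in many other cells.

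There were 4 libraries of total RNA, 1 per group. They came from whole embryos at E11.5 (strain label C57B16/N), labelled Adar1-/- or Adar1-/- Mavs-/-, and from embryonic livers at E15.5 (strain label C57B6/J) with the same genotype labels. Every group carries the Adar1-/- label, so no library shows these genes with Adar1 intact, and the comparison within a tissue is between Adar1 loss with and without loss of Mavs. ADAR1 edits adenosines in double-stranded RNA, and MAVS relays the signal of the RNA sensors RIG-I and MDA5. How the alleles were made, and how many animals gave each library, the sources used here do not give. Loss of ADAR1 is lethal before birth, and the sources used here do not say how E15.5 livers of that label were collected.

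The liver library labelled Adar1-/- Mavs-/- may go against its label, which the values of Adar and Mavs cannot settle. In all, Adar had 5.56 FPKM (5.28 to 5.84) under the Adar1-/- label and 4.11 (3.86 to 4.36) under the other, and Mavs had 7.26 (6.64 to 7.88) and 9.96 (9.17 to 10.7). Adar had 0 of 8 reference isoforms above 0 under the Adar1-/- label in liver, and 3 of 8 under the Adar1-/- Mavs-/- label, where those 3 summed to 2.81 FPKM. Which exons the alleles remove is not stated, so reads from outside them cannot be set apart. FPKM counts fragments by transcript length in kilobases and by the size of the library. Values in brackets after an FPKM value are its Cufflinks bounds. All directions below are therefore directions between libraries with these labels. No group has a second library, so no difference has a replicate check or a p-value. Bounds are those of Cufflinks and cover estimation within a library only.

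Hepatocyte markers were present in both liver libraries, all 20 of them counted. Alb, which encodes albumin, had 4787 FPKM under the Adar1-/- label and 6648 FPKM in the other, and Afp, which encodes alpha-fetoprotein, had 3004 and 3195 (0.08, at -0.24 with TPM). The median log2 ratio of these markers was -0.07, with 0 of 20 at least 2-fold different. A log2 ratio here sets the Adar1-/- Mavs-/- label over the Adar1-/- label, on FPKM plus 1 after scaling by 1 factor per tissue, and a gene was counted from 1 FPKM in either library. TPM here means that genes with a symbol in both libraries were scaled to the same sum. Isoforms without a symbol did not enter that sum. Over all 13850 counted liver genes the median was -0.12, and 16.3% were at least 2-fold different. In bulk RNA, fewer cells of a type and less RNA per cell cannot be told apart.

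Within the cycle, the 2 liver libraries differed enzyme by enzyme. Ass1, Asl and Nags were lower under the Adar1-/- Mavs-/- label, Otc and Cps1 were somewhat higher (Cps1 at -0.07 with TPM), and Arg1 was level. On the log2 scale used here none of the differences reached 2-fold, 0 of 6 members against 16.3% of all counted genes, 9.7% lower and 6.6% higher. The bounds of the 2 libraries were apart for 3 members that were lower, a position held by 42.9% of counted genes, and for 2 that were higher, held by 28.3%. The members' median log2 ratio was -0.35, and 4 of 6 lay below 0, as did 57.98% of all counted genes.

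**Figure D1:**
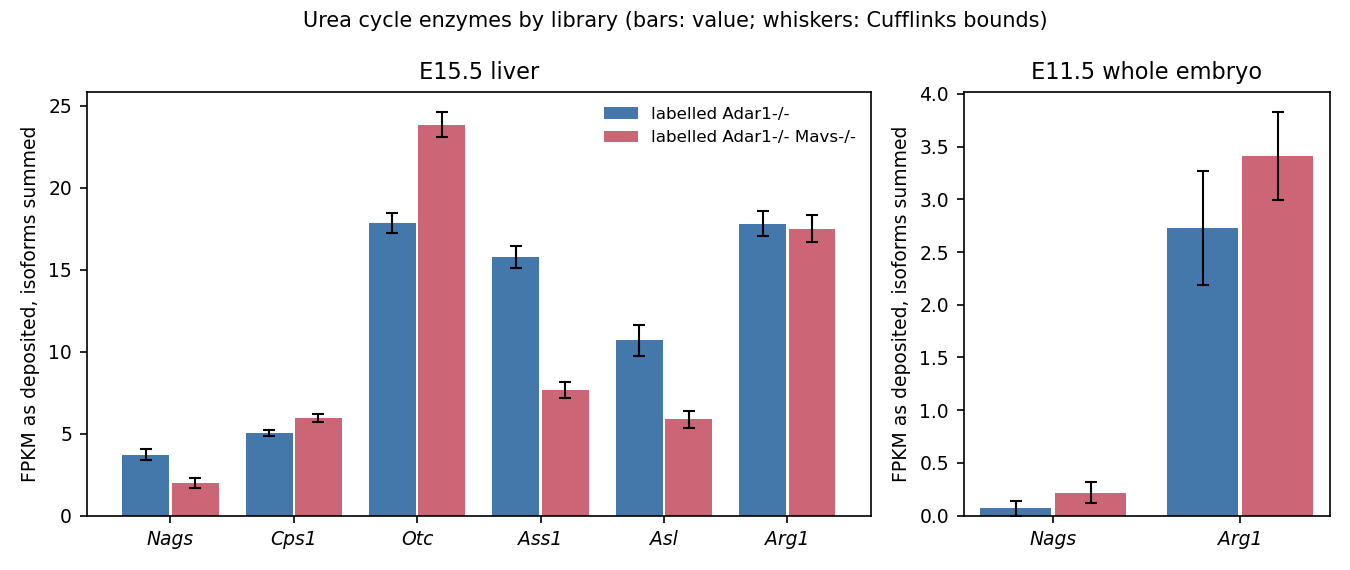
Deposited FPKM of each enzyme, isoforms summed, in E15.5 liver (left axis) and, for Nags and Arg1, in E11.5 whole embryos (right axis), with 1 bar per library and whiskers at the Cufflinks bounds. Ass1 stands at 15.8 and 7.67 FPKM, Asl at 10.7 and 5.87, and Otc at 17.8 and 23.9, with the library labelled Adar1-/- first, while the whiskers of Arg1 overlap.

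Upstream sequences were at hand for 3 members, Ass1, Nags and Otc, and these are shown for that reason. Asl, also lower, and Cps1 and Arg1 had none at hand, so the stretches cannot be set against direction. Each is the 250 bases before the gene start, 5′ to 3′ on the gene's plus strand, from RefSeq on build GRCm38.p6, which is not the build of the expression values. Capitals mark GC boxes, the letters GGGCGG on either strand.

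Ass1 (chr2:31470020-31470269): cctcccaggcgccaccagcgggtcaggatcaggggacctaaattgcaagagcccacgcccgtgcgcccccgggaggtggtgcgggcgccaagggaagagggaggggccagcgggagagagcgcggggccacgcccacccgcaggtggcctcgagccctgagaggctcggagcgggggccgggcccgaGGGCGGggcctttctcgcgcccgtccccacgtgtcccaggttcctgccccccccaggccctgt
Nags (chr11:102145263-102145512): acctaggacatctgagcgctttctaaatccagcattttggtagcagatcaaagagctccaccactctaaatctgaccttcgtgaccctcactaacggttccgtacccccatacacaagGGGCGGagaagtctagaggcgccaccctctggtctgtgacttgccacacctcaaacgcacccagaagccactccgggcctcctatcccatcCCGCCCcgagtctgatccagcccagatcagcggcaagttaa
Otc (chrX:10252055-10252304): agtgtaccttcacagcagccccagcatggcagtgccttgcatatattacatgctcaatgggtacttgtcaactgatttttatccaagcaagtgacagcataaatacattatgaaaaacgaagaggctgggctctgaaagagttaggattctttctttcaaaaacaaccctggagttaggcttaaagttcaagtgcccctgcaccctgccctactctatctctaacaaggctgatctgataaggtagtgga

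The 3 stretches differ in base composition, with 75.6% G and C before Ass1, 55.6% before Nags and 43.6% before Otc. A GC box begins 63 bases before the start of Ass1, and others begin 132 and 41 bases before that of Nags. Otc has 0. Of 32851 promoter stretches of this length, 32.7% hold a GC box. None of the 3 holds a TATA box (TATAAA, in 12.4% of stretches), a CCAAT box (33.8%), a C/EBP motif (TTGCNNAA, 9.56%) or a C/EBP-ATF response element (TGATGNAA, 3.45%), each searched on both strands. A match is a description of letters, not evidence of binding.

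Nags, which encodes the enzyme that makes the activator of CPS1, was the least abundant member. It lies on the plus strand of chromosome 11, from 102006827 to 102010791 (mm9, as are all positions that follow). In liver it had 3.72 FPKM (3.37 to 4.07) under the Adar1-/- label and 1.99 FPKM (1.70 to 2.28) under the Adar1-/- Mavs-/- label. The log2 ratio was -0.66 (-0.91 to -0.42 from the bounds), with bounds apart. After scaling and without the pseudocount, the second library was 1.88-fold lower. All of the reference signal sat in ENSMUST00000147252, which GENCODE types as a processed transcript, at 3.72 and 1.74 FPKM. The protein-coding isoform ENSMUST00000055409 was listed at 0 in both libraries, and an assembled isoform added 0.253 FPKM under the Adar1-/- Mavs-/- label. The gene value thus gives the level of the locus and not that of its coding isoform. ENSMUST00000147252 starts at 102007680, inside the gene, so the upstream stretch printed above need not lie directly before it.

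Cps1, which encodes the enzyme of the first committed step, lies on chromosome 1 from 67169600 to 67277833 on the plus strand. It had 5.05 FPKM (4.85 to 5.25) under the Adar1-/- label in liver and 5.98 FPKM (5.74 to 6.23) under the Adar1-/- Mavs-/- label. The log2 ratio of 0.20 (0.10 to 0.30 from the bounds) turned to -0.07 when both libraries were expressed as TPM. Without the pseudocount the second library was 1.18-fold higher. Part of that difference was an assembled isoform of 0.705 FPKM found only in the second library. The coding isoform ENSMUST00000027144 alone stood at 5.05 and 5.28 FPKM, a log2 ratio of 0.05.

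Otc, which encodes ornithine transcarbamylase, lies on the X chromosome from 9829431 to 9898150 on the plus strand. It had 17.8 FPKM (17.2 to 18.4) under the Adar1-/- label in liver and 23.9 FPKM (23.1 to 24.6) under the Adar1-/- Mavs-/- label. At a log2 ratio of 0.39 (0.30 to 0.48 from the bounds), or 1.33-fold higher without the pseudocount, it had the highest ratio of the 6 members as reported. Its coding isoforms differed. ENSMUST00000049910 had 13.6 and 20.3 FPKM, whereas ENSMUST00000115528 had 1.99 FPKM under the Adar1-/- label and was listed at 0 in the other. The first of these carries the status LOWDATA in both libraries, and without isoforms of that status the log2 ratio of Otc was -0.22.

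Ass1, which encodes argininosuccinate synthetase, had the lowest log2 ratio of the members as reported, whereas with isoforms of status OK only Asl (-1.05) was below it (-0.96). The gene lies on chromosome 2 from 31325727 to 31376192 on the plus strand, and its GC-rich upstream stretch is printed above. It had 15.8 FPKM (15.1 to 16.4) under the Adar1-/- label in liver and 7.67 FPKM (7.20 to 8.14) under the Adar1-/- Mavs-/- label. The log2 ratio was -0.96 (-1.09 to -0.82 from the bounds), and without the pseudocount the value was 2.06-fold lower. It had a lower ratio than all but 10.5% of counted genes. In the first library all of this was the coding isoform ENSMUST00000102840. In the second that isoform had 3.92 FPKM (3.54 to 4.30), a log2 ratio of -1.77, or 4.04-fold lower without the pseudocount. The rest, 3.75 FPKM or 48.9% of the gene value, came from 3 assembled isoforms, 2 of them of 1 exon. Without assembled isoforms of 1 exon, an alternative chosen after seeing the data, the log2 ratio was -1.53.

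**Figure D2:**
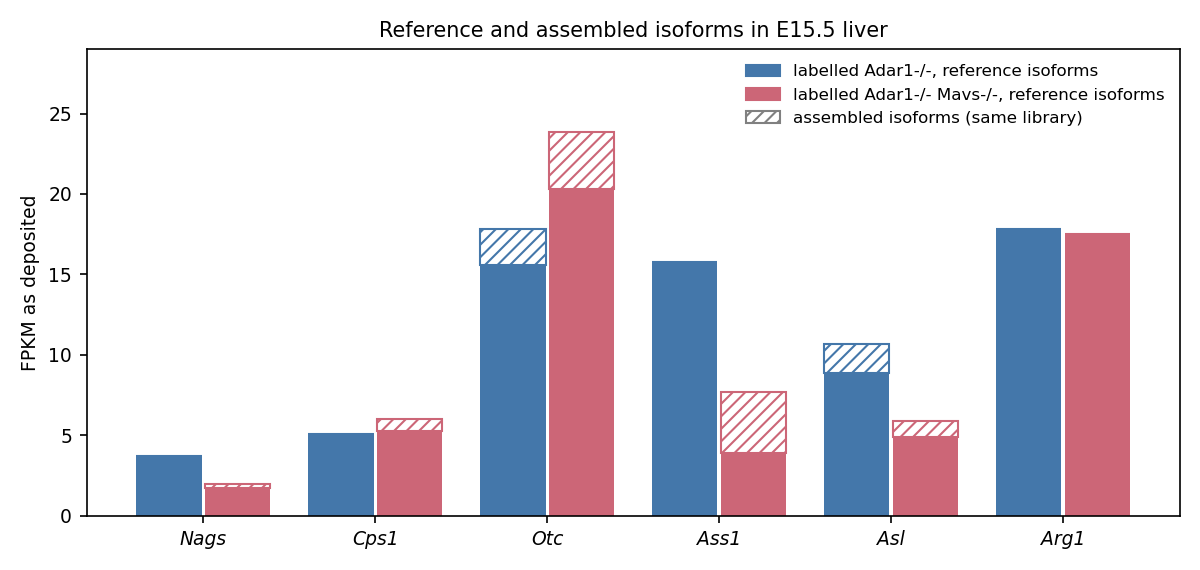
Deposited FPKM in E15.5 liver split into reference isoforms (solid) and assembled isoforms counted under the same symbol (hatched), with the library labelled Adar1-/- left and that labelled Adar1-/- Mavs-/- right for each enzyme. Assembled isoforms hold 48.9% of Ass1 in the second library and 0 in the first, and at most 17.2% of any other member.

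The Ass1 locus also differed in fragments, most of which entered no gene value (2 of the 24 below did). Counting every assembled isoform of 1 exon within the gene, the library labelled Adar1-/- had 1, of 244 bases, and the library labelled Adar1-/- Mavs-/- had 24, of 239 to 2702 bases and 0.589 to 3.93 FPKM. They covered 0.483% and 41.4% of the 50466 bases of the gene. The exons of ENSMUST00000102840 hold 1696 bases in all, so at least 19174 of the 20870 covered bases in the second library lie outside them. The coding isoform and these fragments therefore went in opposite directions between the libraries.

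Fragments of this kind were common in both libraries. Assembled isoforms of 1 exon numbered 196329, over 216.6 Mb, under the Adar1-/- label and 183163, over 195.6 Mb, in the other. Among 7594 genes of at least 10000 bases and 1 FPKM in both libraries, the median covered share was 13.1% and 15.8%, and the median difference was 0 percentage points. The difference of 40.9 points in Ass1 was matched or passed by 204 of those genes, and the 95th percentile was 31.9 points. The other members showed less. Asl had 1 and 5 fragments (5.57% and 16.9% of the gene), Cps1 had 8 and 18 (2.70% and 7.10%), Otc had 1 and 1, Arg1 had 0 and 1, and Nags had 0 in both. Coverage per FPKM was 8.58 and 7.13. The part of depth or of the library in the Ass1 difference was not tested.

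**Figure D3:**
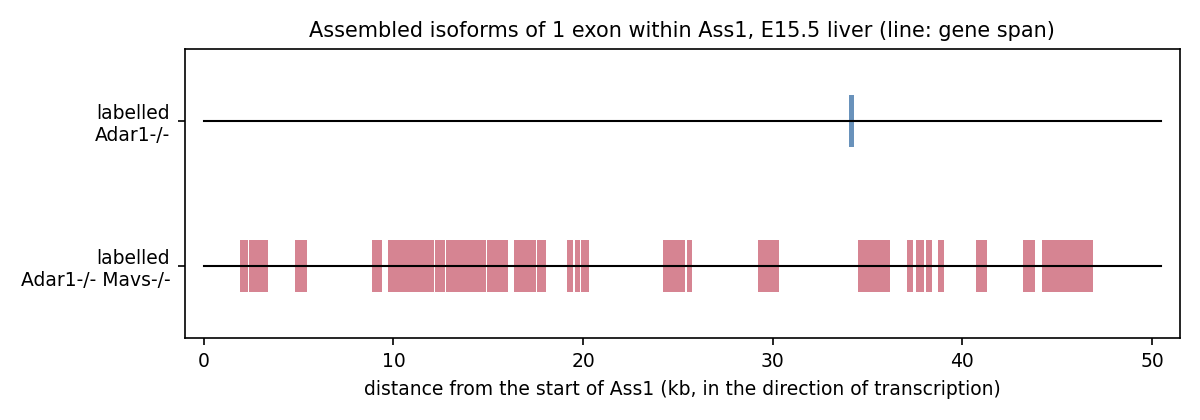
Positions of assembled isoforms of 1 exon along Ass1 in the 2 liver libraries, as distance from the start of the gene in kb (boxes), with the gene span as a line. The library labelled Adar1-/- has 1 fragment, and the library labelled Adar1-/- Mavs-/- has 24, spread from 1.93 to 46.9 kb.

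Asl, which encodes argininosuccinate lyase and acts on the product of ASS1, lies on the minus strand of chromosome 5 from 130487128 to 130501002. It had 10.7 FPKM (9.74 to 11.6) under the Adar1-/- label in liver and 5.87 FPKM (5.34 to 6.41) under the Adar1-/- Mavs-/- label. The log2 ratio was -0.77 (-1.003 to -0.54 from the bounds), with bounds apart, and without the pseudocount the value was 1.83-fold lower. The largest share came from ENSMUST00000160208, an Ensembl isoform that matched no symbol and was counted under Asl by overlap, at 5.06 and 3.65 FPKM. The coding isoform ENSMUST00000159619 had 3.83 and 1.21 FPKM, a log2 ratio of -1.13. It carries the status LOWDATA under the Adar1-/- Mavs-/- label only. With isoforms of status OK only, the Asl ratio of -1.05 therefore leaves it out of that library but not of the other. With only identifiers that matched a symbol, another alternative chosen after seeing the data, Asl as a whole was at -1.14. Its other 7 reference isoforms were listed at 0 in both libraries.

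Arg1, which encodes the liver arginase that releases urea, lies on the minus strand of chromosome 10 from 24635014 to 24647276. It was level between the liver libraries, with 17.8 FPKM (17.0 to 18.6) under the Adar1-/- label and 17.5 FPKM (16.7 to 18.4) under the Adar1-/- Mavs-/- label. The bounds overlapped, and the log2 ratio of -0.03 (-0.15 to 0.10 from the bounds) moved to -0.33 with TPM and to 0.10 with an upper quartile factor. A single isoform, ENSMUST00000020161, gave the whole value in both libraries. Arg2, which encodes the mitochondrial arginase, was listed at 0 in both.

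The order of the levels, which are per length and so can be compared between genes, changed in its middle. Under the Adar1-/- label, Otc and Arg1 stood highest with overlapping bounds, followed by Ass1, Asl, Cps1 and Nags, each apart from the next. Under the Adar1-/- Mavs-/- label the order was Otc, Arg1, Ass1, Cps1, Asl and Nags, and here the bounds of Cps1 and Asl overlapped. Relative to Otc within the same library, which needs no scaling factor, the level of Ass1 was 0.884 in the first and 0.322 in the second. With reference isoforms only these were 1.01 and 0.193, so that Arg1 and Ass1 stood above Otc in the first library, and Ass1 stood below Cps1 (0.259) and Asl (0.239) in the second. The third place of Ass1 there thus rests on assembled isoforms. Asl stood at 0.599 and 0.246 of Otc, Nags at 0.208 and 0.0834, Arg1 at 0.998 and 0.734, and Cps1 at 0.283 and 0.251. Otc itself had 17.8 and 23.9 FPKM, so levels relative to it are lowered in the second library. The sum of the 6 members was 70.9 and 62.9 FPKM.

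Signs held for the lower members. Across 11 settings of scaling, pseudocount and isoform choice, the log2 ratio ran from -1.80 to -0.84 for Ass1, from -1.14 to -0.41 for Asl and from -0.88 to -0.57 for Nags, with 11 of 11 below 0 in each. Ass1 was at least 2-fold lower in 7 of the 11 and Asl in 3. TPM moved the median of all counted genes from -0.12 to -0.36, TPM without the 50 most abundant genes to -0.22, and an upper quartile factor to -0.01, so the members are best read against those medians.

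**Figure D4:**
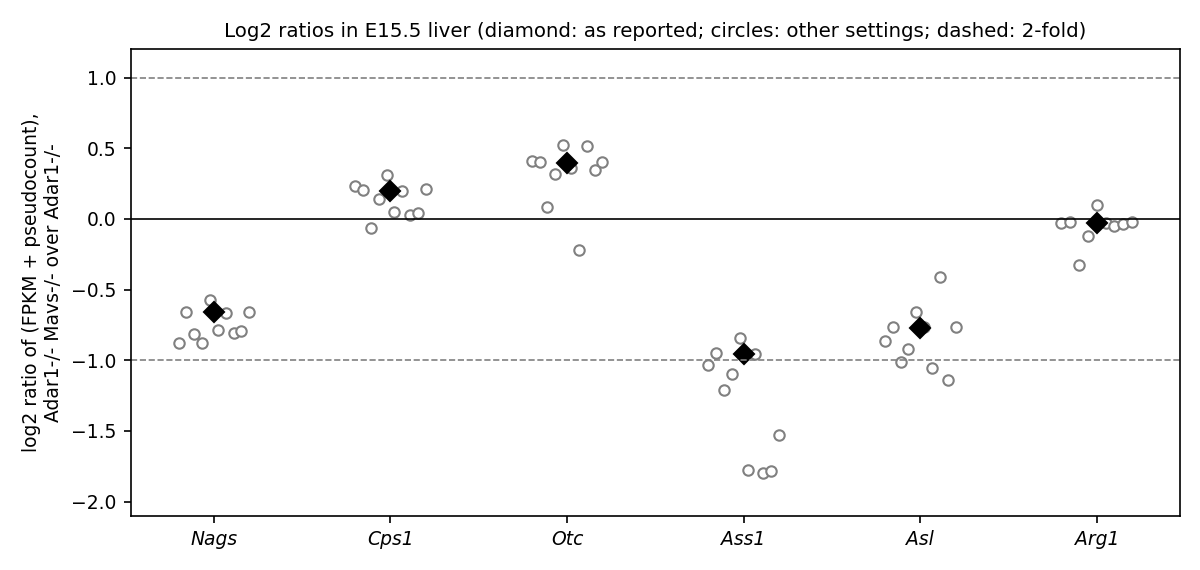
Log2 ratio of each enzyme in E15.5 liver, Adar1-/- Mavs-/- label over Adar1-/- label, as reported (diamond) and under each other setting (circles), with dashed lines at 2-fold. All values of Nags, Ass1 and Asl lie below 0, and those of Cps1, Otc and Arg1 lie on both sides of 0.

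In whole embryos at E11.5, Arg1 and Nags were low. Arg1 had 2.73 FPKM (2.19 to 3.27) under the Adar1-/- label and 3.41 FPKM (2.996 to 3.83) under the Adar1-/- Mavs-/- label. As deposited these bounds overlap, and after scaling by 1.34 they are apart, with a log2 ratio of 0.58 that was 0.24 without scaling, 0.99 with reference isoforms only and -0.19 with TPM. The difference stayed within 2-fold, as it did for all but 16.3% of the 1917 counted embryo genes (9.75% of them lower and 6.52% higher by that size). An assembled isoform gave 36.3% of Arg1 under the Adar1-/- label and none of it in the other.

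Nags had 0.0690 FPKM (0.00 to 0.138) and 0.2196 FPKM (0.122 to 0.317) in the embryo libraries, under the 1 FPKM from which genes were counted. The only isoform above 0 was again ENSMUST00000147252. These bounds overlap as deposited, and after scaling by 1.34 they are apart. The log2 ratio of 0.28 ran from 0.19 to 1.67 over the settings. After scaling and without the pseudocount, the second library was 4.26-fold higher, from values close to 0.

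Set beside the livers, the deposited level of Arg1 in embryos was 6.52-fold lower under the Adar1-/- label and 5.14-fold lower under the Adar1-/- Mavs-/- label. For Nags the same ratios were 53.9 and 9.07, from embryo values close to 0. Tissue, age and strain label all differ between these libraries and cannot be told apart. The embryo comparison holds no other member, as Cps1, Otc, Ass1 and Asl lie on chromosomes outside it.

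Other genes that feed or drain the cycle were read from lists. Over all counted liver genes, 9.7% were at least 2-fold lower, 6.6% at least 2-fold higher and 57.98% below 0. List and marker counts below stand beside these shares. A gene listed at 0 may still have assembled isoforms without a symbol, which were not searched for in these lists. Of 18 genes for transporters, ammonia handling and ornithine enzymes, 15 were counted in liver, with 2 at least 2-fold higher, 2 at least 2-fold lower and a median log2 ratio of -0.29. Got1, the cytosolic transaminase that can supply the aspartate ASS1 uses, had 14.4 FPKM under the Adar1-/- label and 4.78 under the Adar1-/- Mavs-/- label (-1.42, at -0.54 with isoforms of status OK only). Aldh18a1, which makes the precursor of ornithine and proline, had 25.8 and 9.64 FPKM (-1.34). Slc25a15, the carrier that exchanges ornithine for citrulline across the mitochondrial membrane and so links the cycle's mitochondrial and cytosolic steps, was at -0.63 (8.94 and 5.44 FPKM), and this value lay within 2-fold.

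The most abundant of these genes was Glud1, which encodes glutamate dehydrogenase, with 130.9 and 92.2 FPKM (-0.51). Slc25a12, an aspartate-glutamate carrier, had 9.01 and 170.9 FPKM, but 157.7 FPKM of the second value came from ENSMUST00000146653, an isoform of 204 bases, and the other isoforms summed to 13.2. Rhbg, which encodes an ammonium transporter, was listed at 0 under the Adar1-/- label and had 1.498 FPKM in the other (1.32, at 0.98 with TPM). Slc25a13, the carrier known as citrin, had 21.8 and 26.4 FPKM, and Glul, glutamine synthetase, had 50.1 and 32.6.

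Genes that use or carry arginine outside the cycle had a median of -0.59, with 3 of 11 counted genes at least 2-fold lower and 1 higher. Gamt and Gatm are the enzymes of creatine synthesis. Gamt had 33.3 and 12.1 FPKM (-1.40), and Gatm, which uses arginine itself, had 11.0 and 34.4 FPKM (1.55, but -0.49 when assembled isoforms were left out). The arginine transporter gene Slc7a1 had 15.0 and 5.69 FPKM (-1.26), and Srm, spermidine synthase, had 19.3 and 8.98 (-1.03, at -0.86 without assembled isoforms of 1 exon). Azin1, an antizyme inhibitor and an abundant member of the list, had 29.95 and 38.8 FPKM (0.36, at -0.85 with isoforms of status OK only). Of the nitric oxide synthase genes, Nos1 and Nos2 were under 1 FPKM in both libraries. Nos3 had 1.497 and 0.463 FPKM (-0.77).

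Amino acid catabolism, a wider hepatocyte program, was centred near 0, with a median of -0.03 over 36 counted genes, 2 of them at least 2-fold higher and 2 lower. Bhmt, of methionine remethylation, had 50.4 and 119.6 FPKM (1.22, at 0.90 with TPM and 0.79 with reference isoforms only), and Mccc1, of leucine breakdown, had 3.91 and 9.41 (1.08, at -0.36 with isoforms of status OK only). Pccb, a subunit of propionyl-CoA carboxylase, had 12.9 and 3.67 FPKM (-1.58, but -0.90 from reference isoforms and -0.66 from the most abundant isoform), and Amt, of the glycine cleavage system, had 7.86 FPKM and was listed at 0 under the Adar1-/- Mavs-/- label. Hpd, the other most abundant gene beside Bhmt, had 71.7 and 38.7 FPKM (-0.88), and with isoforms of status OK only its ratio turned to 3.55.

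Gluconeogenic and late hepatocyte genes had a median of -0.13, with 1 of 14 counted genes at least 2-fold lower and 0 higher. Fbp1, fructose-bisphosphatase, had 3.18 and 1.05 FPKM (-1.03, but -0.67 from reference isoforms), and Acadm, of fatty acid oxidation, had 41.8 and 47.9 (0.19, at -0.13 with TPM). Pck1 and G6pc, which mark the liver after birth, were under 1 FPKM in both libraries.

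Transcription factors and other regulators of urea cycle genes had a median of -0.44, with 17 of 20 counted genes below 0, 1 at least 2-fold lower and 0 higher. Of all counted genes, 57.98% were below 0 and 9.7% at least 2-fold lower. Cebpb was the 1 regulator past 2-fold, with 13.5 FPKM under the Adar1-/- label and a listing at 0 in the other. That call thus rests on a listing at 0, which need not mean absence of the RNA. Cebpa, known as an activator of urea cycle genes, was at -0.70 (9.92 and 5.77 FPKM). Hnf4a and Sp1, the most abundant of the list, had 32.2 and 24.1 FPKM and 19.1 and 22.7 FPKM (Sp1 at 0.23, and -0.08 with TPM).

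**Figure D5:**
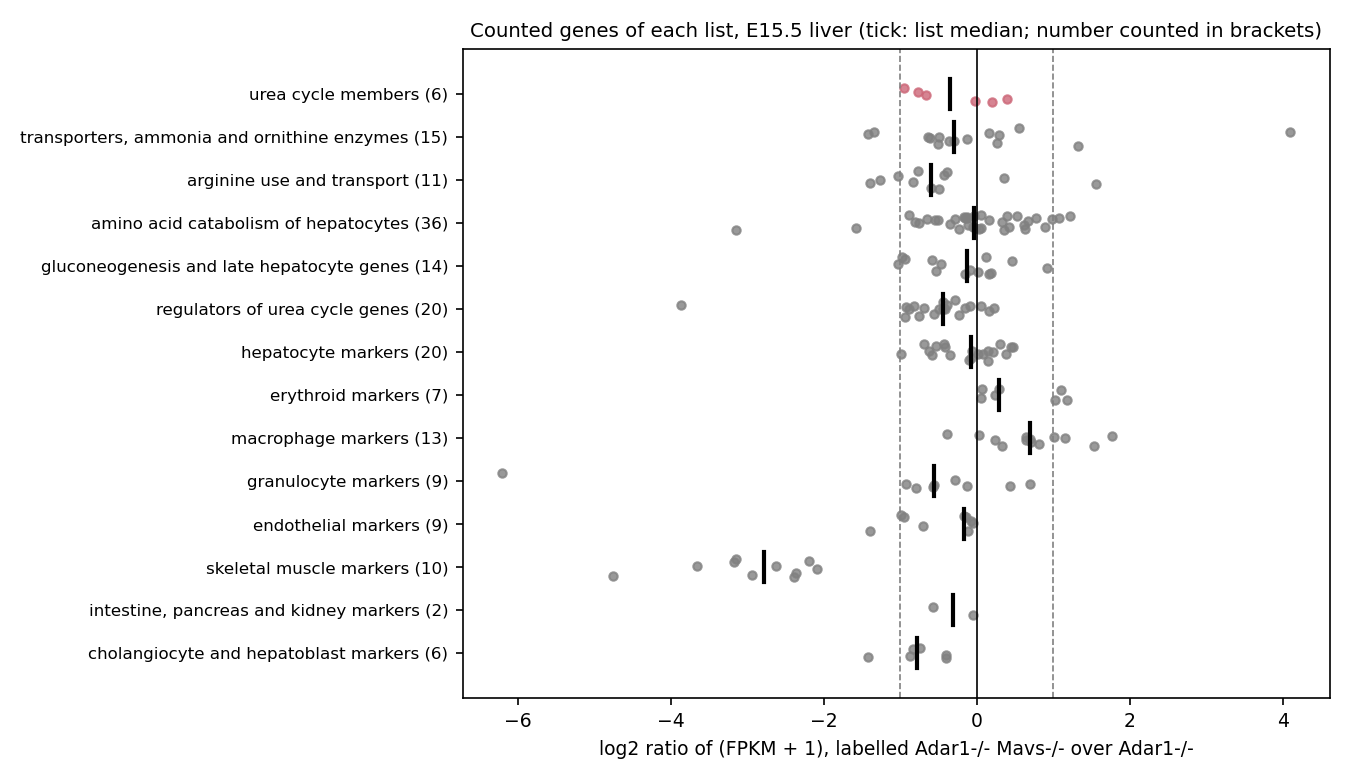
Log2 ratios on FPKM plus 1 of the counted genes of each list in E15.5 liver, Adar1-/- Mavs-/- label over Adar1-/- label, with a tick at each list's median and dashed lines at 2-fold. The urea cycle enzymes lie between -0.96 and 0.39, within the range of the amino acid catabolism genes, and the skeletal muscle markers lie between -4.75 and -2.09.

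Markers of other cell types moved between the liver libraries, and their part in the urea cycle differences was not tested. All 10 counted skeletal muscle markers were at least 2-fold lower under the Adar1-/- Mavs-/- label, from a summed 156.1 to 9.90 FPKM over 11 genes, with Tnnc2 listed at 0 in both. Macrophages can express Arg1 and Ass1, and macrophage markers had a median of 0.69, with 4 of 13 at least 2-fold higher and 0 lower (2 past 2-fold with TPM), and a sum of 179.5 and 245.3 FPKM over 14 genes. Cd68 was at 0 under the Adar1-/- label. Cholangiocyte and hepatoblast markers had a median of -0.79 (6 of 6 below 0, summed 292.5 and 136.5 FPKM), and among them Dlk1, a marker of immature hepatocytes, had 135.4 and 50.2 FPKM (-1.42, at -3.77 with isoforms of status OK only).

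Erythroid markers had a median of 0.28 (3 of 7 at least 2-fold higher, but 0 of 7 with TPM, summed 2142 and 2881 FPKM), granulocyte markers -0.56 (1 of 9 at least 2-fold lower, summed 808.8 and 899.4) and endothelial markers -0.17 (1 of 9 lower, summed 103.2 and 69.4). The erythroid list holds 14 genes, and 7 had a value in both liver libraries. Its globin genes were not among these 7. Of the 9 granulocyte markers 7 lay below 0, among them Prtn3, with 72.5 FPKM under the Adar1-/- label and a listing at 0 in the other. The most abundant of that list, S100a8 and S100a9, were higher (0.70 and 0.44). Intestine, pancreas and kidney, other sites of urea cycle or arginine enzymes, had 2 of 16 markers counted, Fabp2 and Cela1, with at most 2.999 FPKM each. The list summed to 8.60 and 5.27 FPKM, and 5 and 8 of its genes, among them Cdx2, Vil1 and Umod, were listed at 0.

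Genes nearest to each member were sought over the 2 liver libraries, by the distance of log2 FPKM plus 1 among 13850 counted genes. With 2 libraries, nearness says little more than a like level and ratio. Those nearest to Ass1 were Gm25862, Ap1m1 and Mbtps1 (distances 0.02 to 0.04), and to Asl Pml, Ttll12 and Gpatch2 (0.03 to 0.04). Nearest to Nags were Rnf144b, Tmem201 and Tmem106c, to Arg1 Stard7, Ctsc and Gm7099, to Cps1 Cers5, Zfp825 and Thap2, and to Otc Cmc2, Spag9 and Rbl1, all within 0.03.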

How the data were processed

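The deposited tables give FPKM per isoform, with a lower and an upper bound and a status, per the file headers. The deposited coverage column, read depth along an isoform, is proportional to FPKM in each library. TopHat 1.4.0, Cufflinks 2.2.1, a tool for testing read counts and the mm9 build are named without roles in the submitters' processing notes. The sources used here give neither read totals nor strandedness.

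Symbols came from GENCODE M21 through Ensembl transcript identifiers (86.7% matched in each liver library, 90.2% and 88.7% in embryos). An isoform without a symbol was given to the best overlapping symbol within its Cufflinks gene, where one was found. The rest entered no gene value and no TPM sum. By FPKM times length, they made up 42.0% and 39.9% in liver and 42.2% and 63.9% in embryos, Adar1-/- label first. Isoform FPKM were summed, and bounds combined as the root of summed squares. The factor on the library labelled Adar1-/- Mavs-/- set the median log2 ratio of genes of at least 5 FPKM in both libraries to 0 (0.995 in liver, 1.34 in embryos). The scaling and the 2-fold calls were tested on values simulated from the liver library labelled Adar1-/-. The simulation set a library against a copy of itself, changed by a known factor and little noise, so it checked the arithmetic only. It did not cover how isoforms were given to genes, or the spread between 2 real libraries. Python 3.11.15 and pandas 2.3.3 were used.

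The members and lists were chosen with earlier results of these data known. Named genes were the members, the 2 most abundant genes of each list, up to 4 at least 2-fold different with bounds apart, and the 3 nearest to each member. Cell type markers are given mainly by counts and sums. Other genes named, such as Slc25a15, Slc25a13, Glul and Cebpa, were chosen after their values were seen. One gene that this rule names is not reported here.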

Additional observations from a re-analysis of the deposited data

How the results depend on the processing

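Read totals are not given and each group holds 1 library, so only estimation bounds limit the values. No paired analysis was possible because no group has a second library.

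The number of urea cycle members at least 2-fold different in liver was 0 as reported, with FPKM as deposited and with an upper quartile factor. It was 1 (Ass1) with a pseudocount of 0.1, TPM without the 50 most abundant genes, reference isoforms only, the most abundant isoform only, or without assembled isoforms of 1 exon. It was 2 (Ass1 and Asl) with TPM or with only identifiers that matched a symbol. With isoforms of status OK only it was 1 (Asl) of 5, where Arg1 has no value. In that setting an Asl isoform drops out under the Adar1-/- Mavs-/- label only. Over all counted genes the 2-fold share was 16.3% as reported, 18.4% with TPM, 22.1% with TPM after dropping the abundant genes, 23.0% with the lower pseudocount, 23.7% with reference isoforms, 22.9% with status OK, 18.2% with the most abundant isoform, 24.65% with identifiers that matched and 17.1% without assembled isoforms of 1 exon. The members' median of -0.35 became -0.57 with TPM and -0.66 with status OK. In embryos, Arg1 at 0.58 became -0.19 with TPM, 0.99 with reference isoforms, and 0.98 with the most abundant isoform or only identifiers that matched. Nags at 0.28 became 1.22 with a pseudocount of 0.1, 0.54 with TPM and 1.67 with TPM after dropping the 50 most abundant genes. Its embryo values, 0.0690 and 0.2196 FPKM, lie below the pseudocount of 1, so its ratio depends on the pseudocount and the scale. The causes of the other changes were not tested.

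Over all genes, 2258 of 13850 were 2-fold different, and 1335 of 8741 when counted from 5 FPKM, where fewer genes enter. Their higher share, 40.5%, was 24.8% with TPM. Listed genes 2-fold different numbered 34, and from 27 to 50 elsewhere. The 74 log2 ratios of members and named genes had 733 values under the alternatives, and 58 of these, in 29 of the 74, had the opposite sign. Among them were Hpd (-0.88 to 3.55), Ttll12 (-0.72 to 2.797), Azin1 (0.36 to -0.85) and Otc (0.39 to -0.22) with status OK, and Gpatch2 (-0.75 to 1.24) and Tmem106c (-0.68 to 0.44) with reference isoforms. Among ratios at least 2-fold as reported, signs reversed for Cdh5 (-1.39 to 2.69), Gatm (1.55 to -0.49) and Vsig4 (1.53 to -0.012) with reference isoforms only or with identifiers that matched, for Gatm (-0.48) without assembled isoforms of 1 exon, and for Mccc1 (1.08 to -0.36) and Tfrc (1.02 to -0.31) with status OK.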
